A study of Mus musculus with 6 samples.

Results

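Follistatin, its relatives Fstl1 and Fstl3, the activin subunit gene Inhba and the type I and type II receptors Acvr1, Acvr1b, Bmpr1a, Acvr2a, Acvr2b and Bmpr2 were followed in mouse acute promyelocytic leukemia (APL) progenitors and normal myeloid progenitors (MPs). These 10 genes were taken by symbol from the 16440 genes of the deposited expression table, and each had 1 row in it. They were selected on measured values of these same libraries, namely the high Fst of APL cells against MPs, so the difference between APL cells and MPs is described for the 10 genes and not tested. RNA sequencing covered 3 libraries of each kind. The APL cells descended from hMRP8-PML/RARα transgenic mice, in which the human MRP8 promoter drives the PML/RARα fusion in myeloid cells. They had been marked with a GFP retrovirus, expanded in syngeneic recipients and sorted for GFP and c-Kit (strain FVB N/J). The MPs were Lin-Sca-1-c-Kit+ bone marrow cells of the same strain, and no transgene or GFP is named for them. The labels give no age for the mice. The submitters call the 3 libraries of a group biological replicates, and whether each came from its own mouse, or the APL libraries from several primary leukemias, is not stated, so n counts libraries and p-values measure the spread between them.

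Activins and bone morphogenetic proteins (BMPs) are secreted dimers of the TGF-β superfamily. A ligand brings together type II receptor kinases, which bind it and are always active, and type I receptor kinases, which they phosphorylate and which pass the signal to SMAD proteins in the cytoplasm. Activins act mainly through Acvr2a or Acvr2b with Acvr1b, and SMAD2 and SMAD3 carry their signal, whereas BMPs use Bmpr2 or the activin type II receptors with Bmpr1a or Acvr1 and signal through SMAD1, SMAD5 and SMAD9. Follistatin wraps around activin dimers outside the cell and blocks their receptor-binding surfaces. In bone marrow, activin A is known for promoting erythroid differentiation, and follistatin for opposing it.

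Libraries held between 20608727 and 28382785 fragments before scaling by the authors' processing, and all values of the 10 genes were whole numbers of fragments once that scaling was undone, within 0.005 of a fragment. The scaled fragment is the unit of the tests and of the fold changes, and FPKM (fragments per kilobase of transcript, scaled to library size) is used to compare levels between genes. Myeloid progenitor genes were abundant in every library. Their summed FPKM over Kit, Mpo, Elane, Prtn3, Ctsg, Cebpa, Csf3r and Cd34 lay between 8609 and 9693 in MPs and between 23105 and 27599 in APL cells, although Cd34 and Kit were lower in APL cells. Markers of other cell types differed as well. The 6 erythroid markers summed to 243 to 286 FPKM in MPs and 8.41 to 17.3 in APL cells, the 5 mast cell markers to 28.9 to 43.3 and 0.881 to 1.60, the 5 endothelial markers to 13.3 to 17.0 and 2.84 to 3.83, and the 5 lymphoid markers to 12.2 to 14.9 and 0.305 to 0.622. The 6 macrophage markers measured gave 13.6 to 16.8 and 12.5 to 14.0. These similar sums held opposite differences. Emr1 went from 118 ± 14.9 to 823 ± 55.1 scaled fragments and Csf1r from 1415 ± 125 to 405 ± 47.3 (SD, n = 3). The means of C1qa, C1qb and C1qc were also lower in APL cells. Among the lymphoid markers, Cd79b went from 363 ± 45.8 to 6.83 ± 3.04 and Cd79a from 7.37 ± 3.80 to 5.41 ± 2.14.

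Promoter windows of the set were rich in CpG with the exception of Inhba. Upstream windows of 250 bases, from RefSeq on GRCm38.p6, were found for 9 of the 10 genes, all but Fst. The windows of Acvr1 and Bmpr1a, the BMP type I receptors that differed in opposite directions between APL cells and MPs, and of Inhba, the ligand subunit, are shown with CpG dinucleotides in capitals, 5′ to 3′ on the strand of the gene. Acvr1 and Bmpr1a are on the minus strand, at chr2:58566829-58567078 and chr14:34502547-34502796, and Inhba is on the plus strand at chr13:16011601-16011850.
Acvr1: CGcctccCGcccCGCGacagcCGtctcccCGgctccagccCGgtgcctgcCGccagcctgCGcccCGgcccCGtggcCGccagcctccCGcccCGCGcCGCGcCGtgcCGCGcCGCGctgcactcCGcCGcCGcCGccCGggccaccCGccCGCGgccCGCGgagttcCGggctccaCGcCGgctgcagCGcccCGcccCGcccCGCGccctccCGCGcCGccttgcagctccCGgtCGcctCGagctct
Bmpr1a: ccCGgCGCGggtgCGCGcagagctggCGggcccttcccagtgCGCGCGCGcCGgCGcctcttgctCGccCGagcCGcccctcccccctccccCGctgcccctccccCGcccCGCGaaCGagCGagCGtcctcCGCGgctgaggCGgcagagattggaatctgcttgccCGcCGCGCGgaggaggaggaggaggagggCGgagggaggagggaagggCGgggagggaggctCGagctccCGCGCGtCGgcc
Inhba: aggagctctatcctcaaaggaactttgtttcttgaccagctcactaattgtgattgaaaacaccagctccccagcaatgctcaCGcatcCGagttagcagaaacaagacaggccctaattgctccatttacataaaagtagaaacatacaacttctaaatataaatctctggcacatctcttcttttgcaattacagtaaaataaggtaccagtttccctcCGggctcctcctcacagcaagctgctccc
Acvr1 and Bmpr1a had 46 and 36 CpGs and 85.6% and 78.8% G or C, whereas Inhba had 3 CpGs and 43.2%. The median over all 32851 windows was 6 CpGs and 52.4%, and over the 9 windows of the set 24 CpGs and 72.8%. The 8 windows other than that of Inhba had 16 to 49 CpGs and 64.0% to 85.6% G or C. The SMAD box CAGAC, read on both strands, was in the windows of Acvr2a, Acvr2b and Fstl3 (42.2% of all windows), the GC-rich BMP element GGCGCC in those of Bmpr1a and Bmpr2 (9.6%) and the retinoic acid receptor core AGGTCA in that of Fstl3 (14.0%). The deposited locus of Inhba starts at 16014474, downstream of this RefSeq start, so its window may not be the one used in these cells.

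Fst was close to absent from normal MPs and abundant in APL progenitors. Its deposited locus, on GRCm38 as the others here, is on chromosome 13 from 114452261 to 114458730. In MP libraries 1 to 3 it had 1.87, 1.90 and 2.71 scaled fragments, which are 2, 2 and 3 fragments before scaling. In APL libraries 1 to 3 it had 2323, 2326 and 2404 scaled fragments. The APL libraries thus agreed closely with each other, and the groups were far apart. Counted over libraries, the ratio of APL cells to MPs was 1082, with an exact 95% interval from 525 to 2693 that covers counting error only. Per length, Fst went from 0.0346 ± 0.00736 to 37.8 ± 0.377 FPKM (SD, n = 3 libraries), a level above that of 86.7% of all genes in APL cells. On the log2 scale APL cells exceeded MPs by 9.55 (SE 0.17).

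Stromal cells are a known source of follistatin, and the 8 stromal markers measured summed to 3.32 to 4.28 FPKM in MPs and 2.07 to 2.37 in APL cells. Col3a1, Dcn and Cxcl12 had at most 3 fragments in each APL library. Col1a1 and Lepr were higher in APL cells, by limma's test with Benjamini-Hochberg adjustment over all genes, and Col1a2, Pdgfrb and Cxcl12 lower. Pdgfra was also called higher, but no MP library reached 1 scaled fragment. It passed the filter, 1 in 3 or more libraries, through APL cells alone, so a higher value was bound to appear. Lepr reached 1 in a single MP library, so it also passed through APL cells. Cxcl12 reached 1 in fewer than 3 APL libraries, so it passed through MPs. Col1a1 had 70.2 ± 13.7 scaled fragments in APL cells (SD, n = 3). The APL cells had been sorted for GFP and c-Kit, and the part of stromal cells in the Fst level was not tested.

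The genes beside Fst were looked at within 500 kb on either side. Of 7 genes in this window 6 were tested, and 4 of them were higher in APL cells and 1 lower, by limma's test across all genes at an adjusted p under 0.05 and a fold change over 1.5. Over all genes tested, 21.7% were called higher and 24.4% lower. Itga2, the lower neighbor, had 6.17 ± 2.93 scaled fragments in MPs and 0 in every APL library, so it passed the filter through MPs alone. Ndufs4, a subunit of mitochondrial complex I and the nearest gene, had 1673 ± 236 scaled fragments in MPs and 2523 ± 130 in APL cells (log2 fold change 0.60, adjusted p = 7.4e-04 from limma). Itga1, an integrin that binds collagen, went from 42.0 ± 6.80 to 257 ± 19.8 (2.59, adjusted p = 2.2e-06 from limma), and it shares its listed locus with Pelo (0.76), so fragments could be divided between them. The log2 fold changes of the 6 neighbors tested were smaller in size than that of Fst. Fst was chosen for its high level in APL cells, so nothing is read from this.

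Heph, Tktl1, Steap2 and Iqca were among the 5 genes whose profile of log2 scaled fragments over the 6 libraries lay nearest to that of Fst, among 14594 others, at Euclidean distances from 1.45 to 1.94. Heph, a copper-dependent iron oxidase, had 3.75, 5.71 and 3.61 scaled fragments in the MP libraries and 2279, 2276 and 2144 in the APL libraries. By this choice these 4 genes were near absence in MPs, as Fst was. They lie on chromosomes 1, 5 and X, away from Fst.

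**Figure D1:**
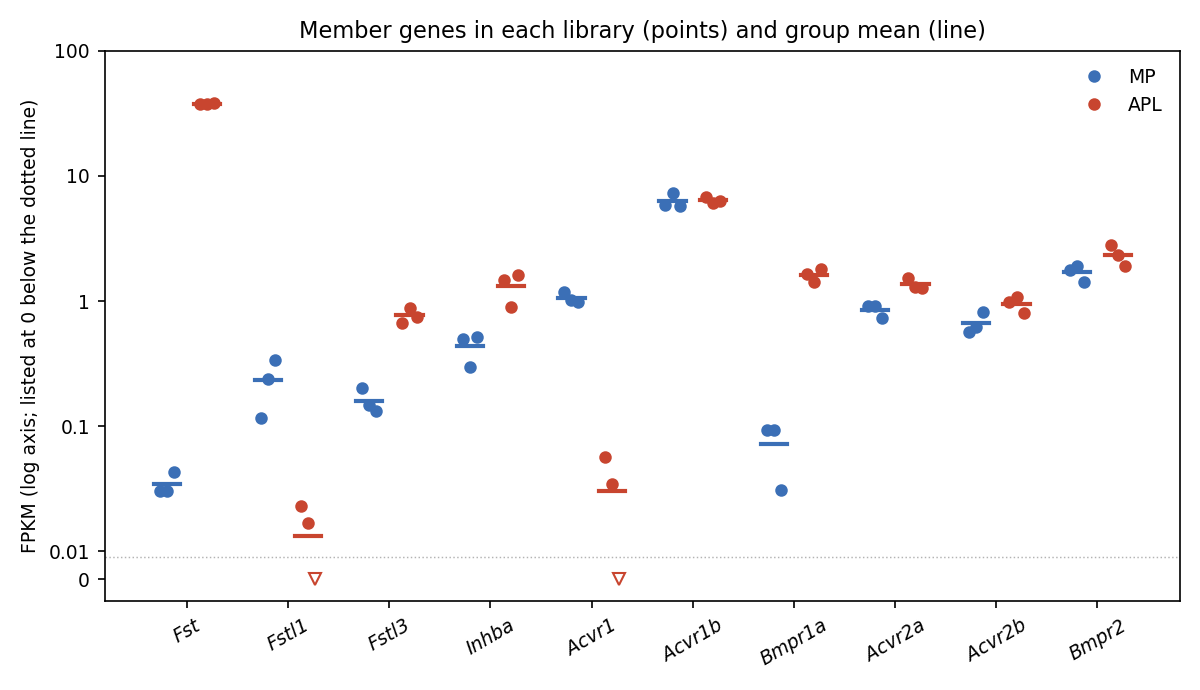
FPKM of the 10 genes on a log axis, with a point for each library (MP blue, APL red), a line at the group mean and open triangles for values listed at 0. Fst goes from the lowest mean in MPs (0.0346) to the highest in APL cells (37.8), Acvr1 and Fstl1 sink toward 0 in APL cells, and the groups overlap for Acvr1b, Acvr2b and Bmpr2.

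The other follistatin-like genes were both scarce and differed in opposite directions. Fstl1, which encodes a secreted glycoprotein that binds activins poorly and acts on BMP signaling, had 12.2, 24.8 and 35.2 scaled fragments in the MP libraries and 2.36, 1.73 and 0 in the APL libraries. Its MP values spread widely, and APL cells held 4 fragments in all. The ratio of MPs to APL cells was 17.0 (exact 95% interval 6.38 to 63.9), and the difference on the log2 scale was −3.46 (SE 0.55). It was −1.50 on log2(FPKM + 0.1), where the added 0.1 weighs heavily beside means of 0.232 FPKM in MPs and 0.0133 in APL cells. Fstl3, which neutralizes activins and myostatin as follistatin does, had 9.37, 6.66 and 6.31 scaled fragments in MPs and 30.6, 40.7 and 34.6 in APL cells. All APL libraries were above all MP libraries, and the log2 difference was 2.11 (SE 0.27). Fstl3 is listed with the same locus as Prss57, a serine protease of myeloid granules with 2380 ± 203 scaled fragments in MPs and 3455 ± 215 in APL cells. Reads of such a far more abundant neighbor could be counted for Fstl3, so its level is uncertain.

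Inhba, whose product pairs with itself to form activin A, was low in both groups. It had 22.5, 13.3 and 24.4 scaled fragments in MPs and 66.0, 39.9 and 72.8 in APL cells, with a log2 difference of 1.52 (SE 0.32). Library 2 was the lowest of each group, and the groups did not overlap. Per length, the antagonist and the ligand subunit changed places. Fst was 0.0609, 0.102 and 0.0829 times the FPKM of Inhba in MP libraries 1 to 3, and 25.4, 41.9 and 23.6 times in APL libraries 1 to 3. Inha, the inhibin subunit that turns an activin β chain into an activin antagonist, had 7.49, 11.4 and 27.1 scaled fragments in MPs and 0 in all APL libraries, at least 4.67-fold lower when set against 3 fragments per library. Inhba lies on chromosome 13 from 16014474 to 16027211, the chromosome of Fst, whose median gene had a log2 fold change of −0.11.

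Among the 3 type I receptors of the set, the BMP receptor Acvr1 was nearly lost and the BMP receptor Bmpr1a was gained in APL cells, while the activin receptor Acvr1b had the highest FPKM of the 3 in both groups. Acvr1 (chromosome 2, 58446437 to 58566828) had 91.8, 78.1 and 76.7 scaled fragments in MPs and 4.71, 2.60 and 0 in APL cells. The ratio of MPs to APL cells was 33.0 (exact 95% interval 15.8 to 82.9) and the log2 difference −4.92 (SE 0.57, and −2.90 with a pseudocount of 10). Bmpr1a (chromosome 14, 34411067 to 34502546) went the other way, from 14.0, 14.3 and 4.51 to 249, 215 and 281 scaled fragments. Its ratio of APL cells to MPs was 22.5 (exact 95% interval 16.0 to 32.6) and its log2 difference 4.52 (SE 0.38). MP library 3 held 5 fragments of Bmpr1a before scaling against 15 in each of the other MP libraries. Of the 6 genes tested within 500 kb of Bmpr1a, 1 was called higher (Zfp488) by limma, against 21.7% of all genes tested. The median log2 fold change of the 6 was −0.22, and nothing is read from this.

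Acvr1b (chromosome 15, 101174124 to 101212601) had 497, 631 and 512 scaled fragments in MPs and 596, 542 and 554 in APL cells. These ranges overlapped, and the log2 fold change of 0.05 (standard error 0.11) turned to −0.08 when libraries were scaled to the same total. The median gene of chromosome 15 had a log2 fold change of 0.46 in these libraries, which Acvr1b did not share. Of 13 genes tested within 500 kb of it, 2 were called higher and 6 lower by limma, against 21.7% and 24.4% of all genes tested. Krt7 and I730030J21Rik, among the 6 lower, were near absence in APL cells and passed the filter through MPs. Nothing is read from these counts.

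Seen as a pool, the 3 type I receptors of the set added up to 7.43 ± 0.839 FPKM in MPs and 8.06 ± 0.482 in APL cells (SD, n = 3). Acvr1b made up 84.5% ± 2.43 of this sum in MPs and 79.4% ± 1.53 in APL cells. The remainder was nearly all Acvr1 in MPs (14.5% ± 2.28, with Bmpr1a at 0.961% ± 0.451) and nearly all Bmpr1a in APL cells (20.2% ± 1.82, with Acvr1 at 0.376% ± 0.343). The change in makeup was present in every library. In MP libraries 1 to 3 the FPKM of Bmpr1a was 0.0783, 0.0912 and 0.0314 times that of Acvr1, and in APL libraries 1 and 2 it was 29.1 and 41.3 times. APL library 3 had Acvr1 at 0.

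**Figure D2:**
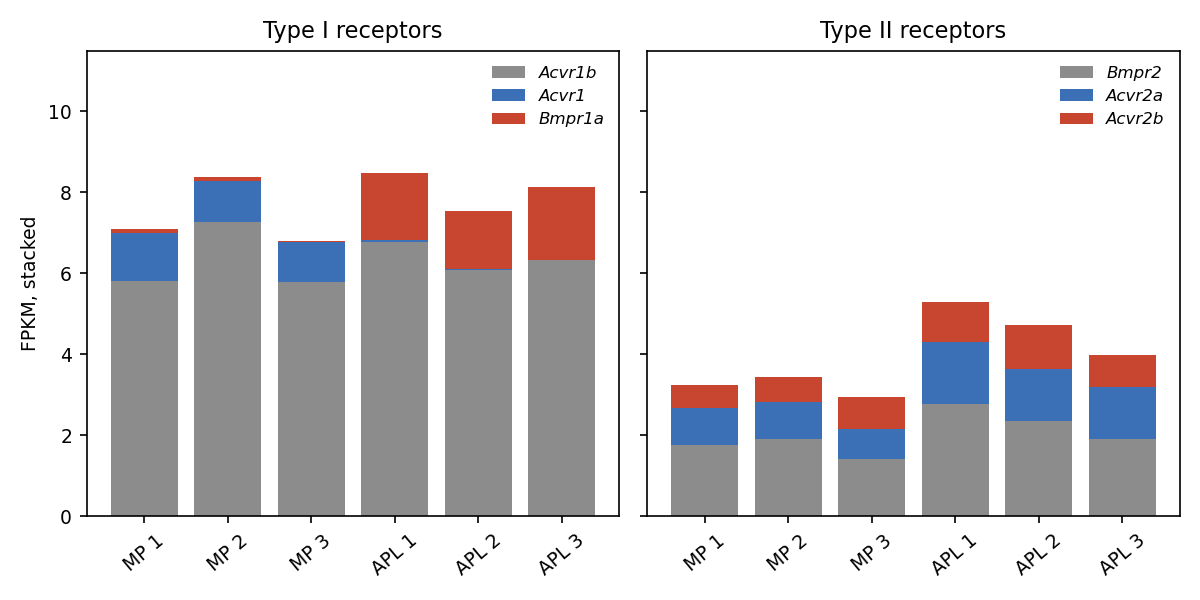
Stacked FPKM of the type I receptors (left) and type II receptors (right) in each of the 6 libraries. Acvr1b (grey) fills most of every type I bar, Acvr1 (blue) is visible in MPs and Bmpr1a (red) in APL cells, and the type II bars keep a similar makeup at a mean of 3.22 FPKM in MPs and 4.67 in APL cells.

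Type II receptors differed less. Acvr2a (chromosome 2, 48814108 to 48949267) had 145, 147 and 113 scaled fragments in MPs and 242, 207 and 209 in APL cells, without overlap and with a log2 fold change of 0.70 (standard error 0.15). It fell short of a 1.5-fold change without MP library 3 (0.58) and with libraries scaled to the same total (0.57). Acvr2a is listed with the locus of the replication factor Orc4 (1302 ± 68.7 scaled fragments in MPs and 1101 ± 48.5 in APL cells), so fragments could be divided between them. Bmpr2 had 194, 209 and 153 scaled fragments in MPs and 296, 251 and 209 in APL cells, and the highest MP value just exceeded the lowest APL value. Acvr2b had 22.5, 24.8 and 35.2 in MPs and 40.1, 43.3 and 32.1 in APL cells, again with overlap. Bmpr2 was 52.6% ± 4.27 of the type II FPKM in MPs and 50.1% ± 2.32 in APL cells, Acvr2a 26.5% ± 1.72 and 29.4% ± 2.38, and Acvr2b 21.0% ± 5.60 and 20.5% ± 2.08 (SD, n = 3), so the shares lay within the spread between libraries or close to it.

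Within each group the levels per length had a clear order at the top. In MPs the order by mean FPKM was Acvr1b (6.29 ± 0.843), Bmpr2 (1.70 ± 0.261), Acvr1 (1.07 ± 0.111), Acvr2a (0.853 ± 0.101), Acvr2b (0.667 ± 0.129), Inhba (0.439 ± 0.122), Fstl1 (0.232 ± 0.111), Fstl3 (0.160 ± 0.0370), Bmpr1a (0.0726 ± 0.0362) and Fst. The ranges of neighbors in this order overlapped for Acvr2a and Acvr2b, Inhba and Fstl1, Fstl1 and Fstl3, and Bmpr1a and Fst. In APL cells Fst stood first, followed by Acvr1b (6.40 ± 0.349), Bmpr2 (2.35 ± 0.436), Bmpr1a (1.63 ± 0.199), Acvr2a (1.36 ± 0.139), Inhba (1.33 ± 0.383), Acvr2b (0.953 ± 0.140), Fstl3 (0.768 ± 0.111), Acvr1 (0.0305 ± 0.0287) and Fstl1 (0.0133 ± 0.0119). There the ranges overlapped from Bmpr1a down to Fstl3 and between Acvr1 and Fstl1.

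By the limits used for all genes, 5 of the 10 genes were higher in APL cells (Fst, Fstl3, Inhba, Bmpr1a and Acvr2a), 2 were lower (Fstl1 and Acvr1) and 3 were neither. Of all 14595 genes tested, 46.1% passed these limits, 21.7% as higher and 24.4% as lower. The groups did not overlap for 7 of the 10 genes, with APL cells above MPs for 5 and below for 2, and for 70.9% of all genes tested (31.1% above and 39.8% below). Since the set was built around this contrast, nothing is read from these counts. The median log2 fold change was 0.60 over the 10 genes and −0.10 over all genes tested. In bulk RNA, fewer cells of a type and less RNA per cell cannot be told apart.

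**Figure D3:**
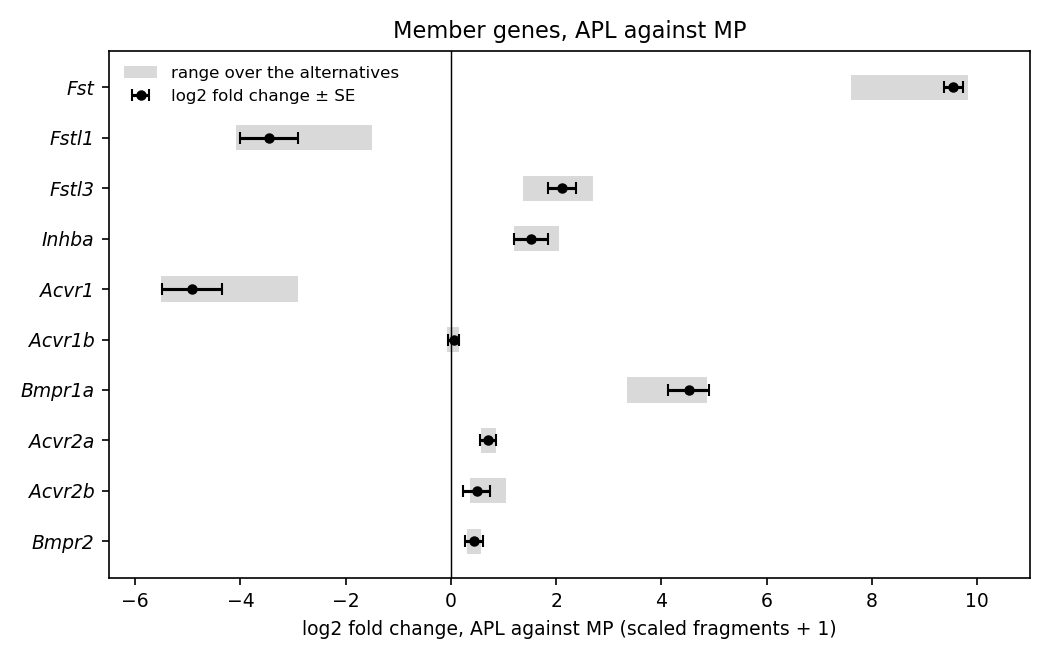
Log2 fold change of APL cells against MPs for the 10 genes (points, with standard errors from limma as bars), over grey bands that span the alternative settings. Fst (9.55) and Bmpr1a (4.52) lie far to the right and Acvr1 (−4.92) and Fstl1 (−3.46) to the left in every setting, and their bands are wider than that of Acvr1b, which has many fragments in both groups.

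The rest of the pathway was not part of the set and was tested. A list of 102 further genes by role had 76 in the table and 63 tested, of which 12 were higher and 30 lower in APL cells and 21 were not called (limma, adjusted p under 0.05 and fold change over 1.5). Of all genes tested, 21.7% were higher and 24.4% lower, 46.1% together. The called share by role was 45.5% of ligands, 66.7% of receptors, 50% of SMADs and 57.1% of signal regulators. It was 85.7% of antagonists, 85.7% of signal targets and 100% of follistatin-domain proteins. For 9 of the 63, a single group had values of at least 1, so a difference was bound to appear, and without them 11 of 54 were higher and 22 lower. Some of the 54, among them Gdf3, Ltbp1, Nbl1 and Smad6, reached 1 in fewer than 3 APL libraries, so they also passed through MPs. The median log2 fold change was −0.40 over these 54 and −0.76 over the 63. It was −0.10 over all genes tested, from which no genes of a single group were taken out. With a minimum of 10 scaled fragments, 43 were tested and 17 were lower.

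Of 29 further ligand genes 11 were tested, 1 was higher and 4 were lower. Inha and Tgfb3, both at 0 in APL cells, passed the filter through MPs alone, and of the other 9 genes 1 was higher and 2 were lower. Tgfb1, the TGF-β of blood cells, was the abundant ligand in both groups, with 5221, 4976 and 5821 scaled fragments in MPs and 4600, 5839 and 5517 in APL cells (log2 fold change −0.01, 95% interval −0.25 to 0.23, adjusted p = 0.94 from limma). It was named after its values were seen. Gdf3, a BMP-family member that antagonizes BMPs, had 160, 158 and 198 in MPs and 0, 2.60 and 1.23 in APL cells (log2 fold change −6.42). Gdf3 passed the filter through its MP values, so no test is given for it. Its ratio of MPs to APL cells was 121 (exact 95% interval 47.1 to 446). Lefty1, an antagonist of Nodal, had 77.8 ± 16.3 in MPs and 19.5 ± 5.63 in APL cells (−1.96, adjusted p = 1.9e-04 from limma).

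Receptors and co-receptors also showed losses and gains. Of 13 genes 9 were tested, 2 were higher and 4 lower. Of the 8 left without Rgma, which passed the filter through APL cells alone, 1 was higher and 4 were lower. Eng, the TGF-β and BMP co-receptor endoglin, was nearly lost, at 2693 ± 308 and 27.2 ± 4.39 scaled fragments (difference on the log2 scale −6.58, adjusted p = 6.8e-09 from limma), with 2445, 2597 and 3037 in MP libraries and 23.6, 26.0 and 32.1 in APL libraries. Bambi, a pseudoreceptor without a kinase domain that dampens BMP and activin signaling, fell from 173 ± 34.0 to 1.67 ± 0.806 (−6.05, adjusted p = 3.1e-07 from limma), a ratio of 97.3 (exact 95% interval 41.4 to 301). Tgfbr3, the co-receptor betaglycan, which gives inhibin its hold on activin receptors, and Tgfbr2, the TGF-β type II receptor, fell by 1.76 and 1.68 on the log2 scale. Tgfbr1 had 1019 ± 125 and 1493 ± 46.4 scaled fragments and did not reach a 1.5-fold change. This TGF-β type I receptor had 6.89 ± 0.739 FPKM in MPs and 9.83 ± 0.474 in APL cells (SD, n = 3), against 6.29 and 6.40 for Acvr1b.

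Rgma and Rgmb, BMP co-receptors of the repulsive guidance molecule family, were on in APL cells. They were named after their values were seen. Rgma was at 0 in every MP library and had 123, 107 and 69.1 scaled fragments in the APL libraries, at least 35.6-fold higher when set against 3 fragments per library. Rgma shares its listed locus with another gene, as do Eng, Ltbp3 and Tgif2, so fragments could be divided there. Rgmb had 1.87, 1.90 and 3.61 in MPs and 69.5, 77.2 and 54.3 in APL cells (log2 fold change 4.32, adjusted p = 2.7e-06 from limma). Both reached 1.11 FPKM in APL cells, where Bmpr1a had 1.63.

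Extracellular antagonists and the latent TGF-β binding proteins had 7 genes tested, of which 5 were lower and 1 higher. Wfikkn2, 1 of the 5, passed the filter through MPs alone, and Nbl1, another, had a mean of 2.48 scaled fragments in MPs. Over all genes tested, 24.4% were lower. Ltbp1 and Ltbp3, which hold latent TGF-β in the matrix, went from 374 ± 33.4 to 2.82 ± 2.54 and from 545 ± 102 to 10.1 ± 1.94 scaled fragments (log2 fold changes −6.96 and −5.61). The adjusted p of Ltbp3 was 7.3e-08 from limma. Ltbp1 was at 0 in APL library 2 and passed the filter through MPs, so no test is given for it. Twsg1, a BMP-binding modulator, went from 1296 ± 62.2 to 566 ± 16.9 (−1.19). Ltbp4 rose from 43.1 ± 4.84 to 73.2 ± 9.32 (0.75, adjusted p = 0.0084 from limma).

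Proteins that share a follistatin domain with Fst were also tested. Of 13 genes 7 were tested, with 2 higher and 5 lower. Smoc1, a secreted calcium-binding protein that antagonizes BMPs, had 13.1, 19.0 and 27.1 scaled fragments in MPs and 755, 799 and 794 in APL cells (log2 fold change 5.30, adjusted p = 1.9e-07 from limma). Agrn, the proteoglycan agrin, rose from 1278 ± 68.4 to 3979 ± 240 (1.64, adjusted p = 2.1e-07 from limma). The 5 that were lower had means between 2.16 and 23.1 scaled fragments in MPs. Fstl4, at the low end of this range, was at 0 in APL cells and passed the filter through MPs alone, and 4 of the other 6 were lower. Among these, Sparc had 0, 1 and 1 fragments before scaling in the APL libraries and Tmeff1 had 2, 3 and 0, so they also passed through MPs.

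Signal carriers of both branches were present in APL cells, some at lower levels. All 8 SMAD genes were tested, and 4 were lower while the other 4 were not called. Smad9, 1 of the 4 lower, passed the filter through MPs alone. Smad6, another of them, reached 1 in a single APL library. Smad2, which carries activin signals, had 1461 ± 44.0 scaled fragments in MPs and 1505 ± 116 in APL cells (log2 fold change 0.04, and −0.09 with libraries scaled to the same total). Its partner Smad3 went from 1107 ± 64.4 to 468 ± 21.4 (−1.24, adjusted p = 2.0e-06 from limma). The shared Smad4 had 1170 ± 81.5 and 1303 ± 64.2 (0.16, adjusted p = 0.11 from limma). Among BMP SMADs, Smad1 went from 345 ± 20.3 to 189 ± 14.1 (−0.87, adjusted p = 1.6e-04 from limma), while Smad5 had 1496 ± 187 and 1112 ± 70.6 (−0.42) and stayed under the fold limit.

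Smad9 was scarce, with 9, 2 and 2 fragments before scaling in MPs and 0, 1 and 0 in APL cells, a ratio of 11.3 (exact 95% interval 1.70 to 482). A lower value in APL cells was bound to appear for a gene that passed the filter in this way, so no test is given for it. The inhibitory SMADs parted. Smad6, which blocks BMP receptors, had 20.6, 30.5 and 38.8 scaled fragments in MPs and 0, 0.867 and 1.23 in APL cells (−4.22), a ratio of 42.3 (exact 95% interval 11.4 to 354). A single APL library reached 1, so Smad6 also passed the filter through MPs and no test is given for it. In contrast, Smad7 had 196 ± 21.2 and 263 ± 14.4 (0.42, adjusted p = 0.017 from limma), under the fold limit.

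Regulators of the signal were all measured. Of 14 tested, 4 were higher and 4 lower. Smurf1 and Nedd4l, ubiquitin ligases that remove receptors and SMADs, rose from 311 ± 24.3 to 590 ± 30.7 and from 435 ± 7.98 to 834 ± 30.6 scaled fragments (log2 fold changes 0.92 and 0.94). Fkbp1a, which holds type I receptors inactive until ligand arrives, rose from 1525 ± 41.1 to 2972 ± 170 (0.96, adjusted p = 3.2e-06 from limma). Tgif2, a corepressor of SMAD-driven transcription, fell from 398 ± 9.12 to 20.4 ± 8.54 (−4.32, adjusted p = 2.9e-06 from limma).

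Among 9 genes known as BMP or TGF-β targets 7 were tested, 2 were higher and 4 lower. Of the 4, Id3, Pmepa1 and Atoh8 were at 0 in APL cells and passed the filter through MPs alone, which leaves Tgfbi. Id1, an inhibitor of basic helix-loop-helix factors that BMP SMADs induce, had 133, 96.2 and 120 scaled fragments in MPs and 693, 816 and 684 in APL cells (log2 fold change 2.65, adjusted p = 6.0e-07 from limma). Id2 went from 251 ± 74.9 to 580 ± 20.5 (1.25, adjusted p = 6.8e-04 from limma). Their relative Id3 had 4.68, 4.76 and 6.31 in MPs and 0 in every APL library. It was named after its values were seen. Tgfbi, a matrix protein induced by TGF-β, fell from 331 ± 59.5 to 145 ± 8.87 (−1.17, adjusted p = 1.7e-04 from limma). RNA levels do not measure whether a receptor was signaling, and these targets respond to other inputs as well.

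**Figure D4:**
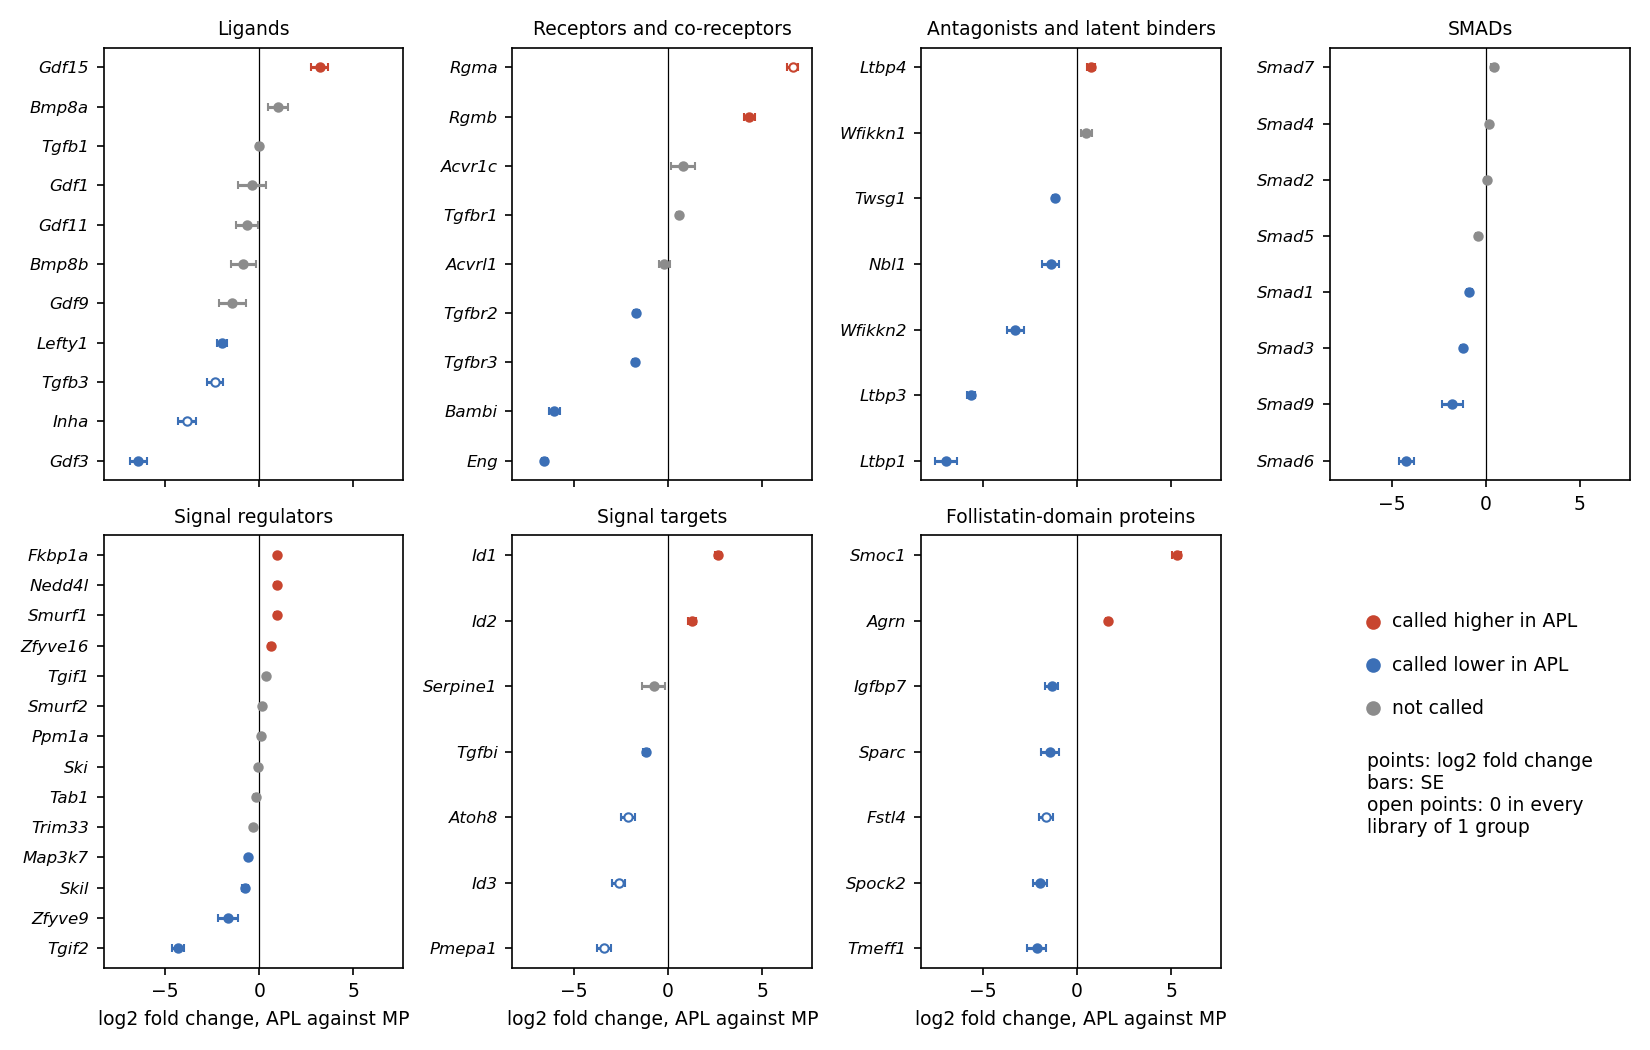
Log2 fold change of APL cells against MPs, with standard errors, for the 63 tested pathway genes outside the set, in 7 panels by role; red points are called higher, blue lower and grey not called, and open points mark genes at 0 in every library of 1 group. Rgma, Smoc1 and Rgmb lie far to the right and Ltbp1, Eng and Gdf3 far to the left.

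Most endothelial markers and the tested erythroid and mast cell markers were lower in APL cells together with Acvr1, Eng, Bambi and Ltbp1. The endothelial marker Cdh5 went the other way, from 0.613 ± 0.531 scaled fragments in MPs to 2.37 ± 1.15 in APL cells. Its groups did not overlap, and it was not called. Tek, an endothelial and stem cell receptor, went from 160 ± 24.5 to 1.49 ± 0.776 scaled fragments, the erythroid factor Klf1 from 3157 ± 498 to 15.6 ± 2.30 and the mast cell protease Cpa3 from 1351 ± 260 to 31.1 ± 14.8. The part of these cell types in the differences of the receptor genes was not tested. Of the erythroid markers 5 of 5 tested were lower, of the mast cell markers 4 of 4 and of the endothelial markers 4 of 5. Of the lymphoid markers 2 of 3 tested were lower, and of 5 macrophage markers tested 2 were lower and 1 was higher. The share called lower over all genes tested was 24.4%.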

How the data were processed

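The deposited table gives for each gene and library an FPKM from the authors and a fragment estimate. Per the file headers and values, the deposited fragments are a signal scaled by a factor of each library (87.3% to 89.4% of nonzero values under 1000 fragments were whole multiples of 1 step, within 0.02), so no count test was applied. The submitters' processing notes list CASAVA 1.8, TopHat2 2.0.6 and mm10, and the paper names STAR, mm9, HTSeq-count and DESeq2. Loci are given as deposited. The values came from 6 libraries, 3 MP and 3 APL.

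Differences were tested with limma 3.58.1 in R 4.3.3 (lmFit, eBayes with a trend, two-sided) on log2(scaled fragments + 1), keeping the 14595 genes that reached 1 in 3 or more libraries, with Benjamini-Hochberg adjustment over all of them. A fold change on this scale understates that of genes with few fragments. Genes were called at an adjusted p under 0.05 and a fold change over 1.5. The test was tested on simulated data first. Ratios of fragments have exact binomial intervals (95%), which cover counting error only. Pairs of libraries of a group differed in log2 values by an SD between 0.47 and 0.52, and none stood apart.

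The members and lists were chosen with earlier results of these data known. Named were the 10 members, in each list up to 4 called genes with the largest change and a mean of at least 50 scaled fragments, every SMAD tested and the 5 genes nearest to Fst. A result under this rule is not reported here. Neighbors within 500 kb, markers, and the genes said to be named after their values were seen fall outside this rule, as do Lefty1 and Tgfbr1. Of 17 alternatives, the closing section gives the effect. Promoter windows came from RefSeq (GRCm38.p6). Python 3.11.15 with matplotlib 3.10.9 made the figures.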

Additional observations from a re-analysis of the deposited data

How the results depend on the processing

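The counts of calls were recomputed under 17 alternatives and the log2 fold changes of the 41 named genes under 16 of these. The 5 members called higher were 4 with scaling to the same total or voom and 6 with quantile normalization, and 2 were lower in every setting. Pathway genes called lower numbered 30, and 17 with a minimum of 10 scaled fragments, which left 43 of 63 to test. Leaving out single libraries, 28 to 29 were lower and 11 to 13 higher. Of 654 values of named genes, 638 kept direction and call, 8 lost the call (Acvr2a and Smad9, which was too low to test with FPKM or a minimum of 10), 2 gained it (Acvr2b) and 6 were reversed. The reversals were those of Acvr1b (0.05), which had −0.0791 with the same total, −0.0767 with voom and −0.0129 without MP library 1 (single libraries left out, up to 0.159), and of Smad2 (0.04), which had −0.0902, −0.0894 and, without APL library 3, −0.0222 (up to 0.0773). Neither gene was called in any of them. Scaling to the same total moved the median of all genes from −0.10 to −0.23. In a fit that took library numbers as a replicate block, 30 pathway genes were lower and 12 higher, as without it. Same-numbered libraries had deviations from their group means that correlated at 0.33, −0.18 and 0.33 over 10525 genes, so the numbers were not taken as pairs, and MP library 2 did not correlate best with its own number. Fstl1 and Acvr1 were limited by depth in APL cells, with 4 and 7 fragments over 3 libraries. Their log2 fold changes ranged from −4.09 to −1.50 and from −5.51 to −2.90. The values of smallest size came with FPKM + 0.1 for Fstl1 and with a pseudocount of 10 for Acvr1.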
